A study of Mus musculus with 10 samples.

Results

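The 10 genes described here encode enzymes of de novo nucleotide synthesis: Cad, Dhodh, Umps and Ctps of the pyrimidine branch, Ppat, Gart, Paics and Atic of the path to IMP, and Impdh1 and Impdh2 of the step from IMP toward GMP. They were chosen by gene name, and each name was listed once among the 57825 genes of the table. They were measured by RNA sequencing of CD8+ T cells in 10 samples. CD8+ T cells isolated from the spleens of female Balb/c mice were activated for 12 h on plates coated with anti-CD3, with anti-CD28 and IL-2, and were then kept for 24 h with or without sodium acetate (NaAc, 5 mM). They were co-cultured for 48 h with 4T1 cells, a mouse mammary carcinoma line, and RNA was taken from the purified CD8+ T cells. The group CD8+4T1 (n = 5) had no sodium acetate, the group CD8+4T1+NaAc (n = 5) had it, and both carry the label Day 3. The comparison addresses how acetate changes gene expression in T cells exposed to tumor cells. The labels do not say whether the 5 samples of a group came from separate animals or cultures, so p-values measure only the spread between these samples.

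Purines and pyrimidines are built either from small precursors (de novo synthesis) or by salvage of free bases and nucleosides. De novo synthesis joins amino acids, carbon dioxide and one-carbon units onto phosphoribosyl pyrophosphate (purines), or closes the ring first and adds the ribose phosphate afterwards (pyrimidines). Activated T cells are known to raise it when they prepare to divide, and IMPDH and DHODH are targets of drugs that hold back lymphocytes.

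All 10 members were among the 15710 genes whose mean reached 0.5 FPKM, a unit of fragments scaled to gene length and to the fragments of the library. Between 275 fragments (Dhodh) and 6805 fragments (Impdh2) lay behind a member's value in a sample. For most members the spread between samples exceeded the counting error, but within CD8+4T1 it did not for Dhodh (coefficient of variation 3.50%, counting error 5.38%) or Atic (1.45% and 2.18%). In CD8+4T1 the mean level fell from 125 FPKM for Impdh2 through 63.2 for Paics, 41.0 for Gart, 36.9 for Impdh1, 32.3 for Cad, 22.4 for Umps, 22.0 for Ppat, 18.5 for Ctps and 15.8 for Atic to 3.27 FPKM for Dhodh. The samples of Gart overlapped those of Impdh1, and the samples of Umps overlapped those of Ppat, while all other neighbours in this order were separate. In CD8+4T1+NaAc Impdh1 stood above Gart with no overlap (45.4 against 35.7 FPKM), and Gart, with 35.7 FPKM, overlapped Cad, with 35.4 FPKM. Umps, Ctps, Ppat and Atic, between 19.6 and 17.1 FPKM, each overlapped the next in that group.

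Levels were compared with limma on log2(FPKM + 0.1), a scale that slightly understates changes of low genes, and a call required an adjusted p (Benjamini-Hochberg, over all genes tested) under 0.05. Of the 10 members, 2 rose with NaAc (Impdh1 and Cad) and 1 fell (Gart), against a background of 17.6% of all genes called higher and 19% called lower. The median log2 fold change of the members was 0.02, beside -0.02 over all genes tested. For 3 members (Impdh1, Impdh2 and Gart) the 5 samples of the groups did not overlap, as was the case for 26.4% of all genes. These shares were near those of all genes, and the members differed in direction among themselves.

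**Figure D1:**
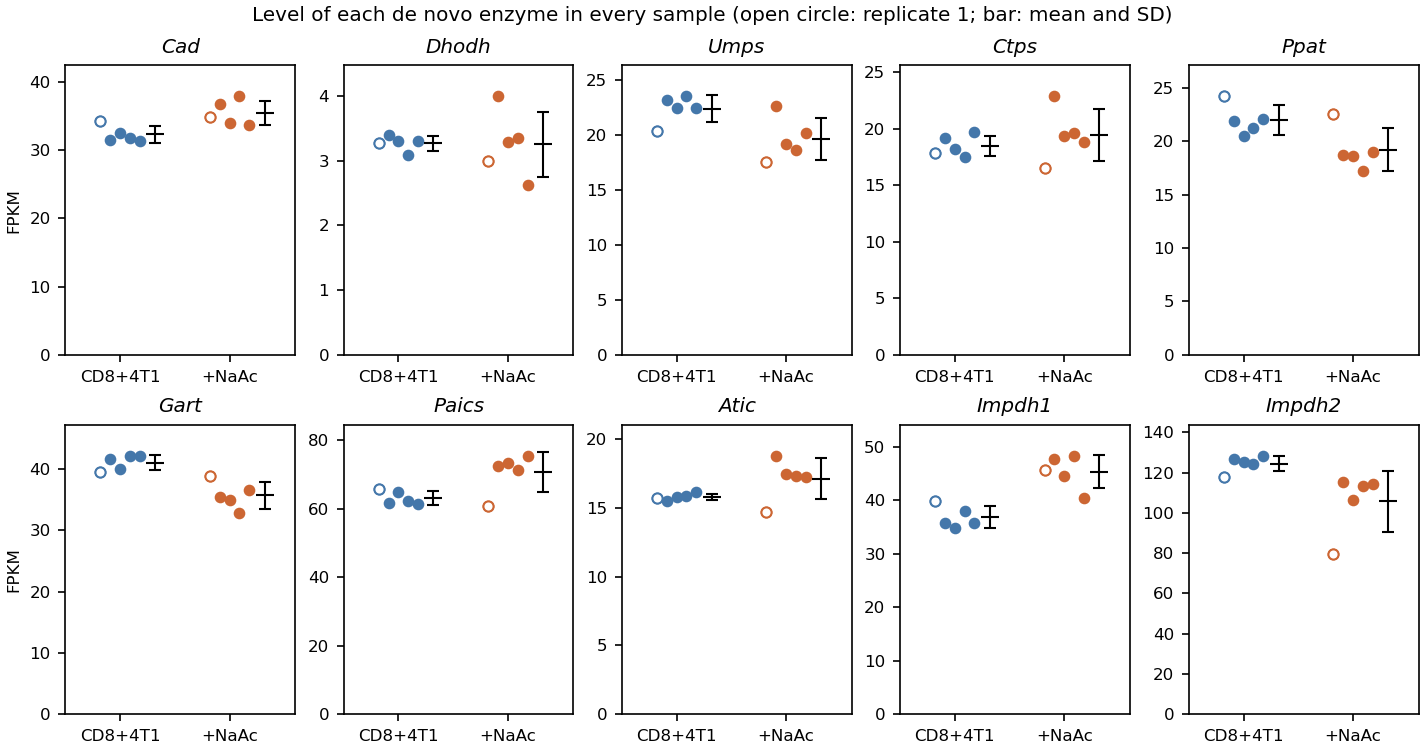
Level in FPKM (vertical axes, each from 0) of the 10 enzymes in the 5 samples of CD8+4T1 (blue) and of CD8+4T1+NaAc (orange), with the mean and SD as a bar beside the points and replicate 1 as an open circle. Impdh1, Impdh2 and Gart show groups that do not overlap, and replicate 1 of CD8+4T1+NaAc is the lowest of its group for Impdh2, at 79.5 FPKM, and for Paics, at 60.9 FPKM.

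Some features of the samples touch these values. In replicate 1 of CD8+4T1+NaAc a value above 0 was listed for 20233 genes, while the other 4 samples of the group had between 24681 and 25088. Replicate 1 of CD8+4T1 likewise had the fewest of its group, 22291, beside 23786 to 24054 in replicates 2 to 5. Without replicate 1 of CD8+4T1+NaAc, 3 members were called lower (Impdh2, Ppat and Gart) and 4 higher (Cad, Impdh1, Paics and Atic). In that fit 22.6% of all genes were called lower and 21.7% higher. The listed genes held 95.5% to 97.9% of the fragments that the FPKM refer to in CD8+4T1 and 89.8% to 92.1% in CD8+4T1+NaAc. When FPKM were rescaled to the same total in each sample, the median over all genes tested went from -0.02 to 0.16 on the log2 scale and that of the members from 0.02 to 0.20. By that measure 5 members rose (Cad, Ctps, Impdh1, Paics and Atic) and 0 fell, beside 31.2% of genes called higher and 8.8% lower. The same counts, 5 and 0, came from scaling by 12 T cell markers, beside 28.4% of genes called higher and 7.65% lower. Which scaling is closer to the amount per cell cannot be told apart from these files, and the same holds in bulk RNA for fewer cells of a type and less RNA per cell.

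Of 20 epithelial and 4T1 markers, 9 of the 12 tested were higher in CD8+4T1+NaAc and 0 lower, and their summed level was 22.6 to 36.9 FPKM in CD8+4T1 and 138 to 306 FPKM in CD8+4T1+NaAc. None of the 20 was at 0 in every sample. The 12 T cell markers summed to 903 to 1014 FPKM and 761 to 943 FPKM, with 7 called lower and 1 higher (5 lower and 4 higher with the same total), and Cd8a, which encodes a chain of CD8, was at 78.6 ± 2.34 FPKM without and 76.5 ± 4.37 FPKM with NaAc (SD, n = 5 each). Markers of CD4 T cells and NK cells summed to 0.469 to 1.18 FPKM in CD8+4T1 and 1.57 to 2.22 FPKM in CD8+4T1+NaAc, with Cd4 called higher (1.44, limma adjusted p = 0.000317). Myeloid markers summed to 3.30 to 5.64 and 4.64 to 7.31 FPKM, with Lyz2 called higher (0.96, adjusted p = 0.0328, but over 0.05 with 6 of the 10 samples left out in turn). B cell markers summed to 3.92 to 4.91 and 4.55 to 6.22 FPKM, with 0 of the 2 tested called. Without replicate 1 of CD8+4T1+NaAc, Cd79b, Cd8b1 and Trac were also called higher (limma adjusted p = 0.0128, 0.00314 and 0.000997). With all samples and in that fit alike, the T cell markers Cd2, Cd3d, Cd3e, Cd3g, Cd5, Lat and Lck were called lower. Zap70 was called higher in both. The part of these other cells in the levels of the enzymes was not tested. Dividing tumor cells use the same enzymes.

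Among the sequences that bear on the members, the stretches around the start sites of Impdh1 and Impdh2 and of Paics and Ppat are shown here. The genes of each pair differed in the direction of their means, though among them only Impdh1 was called. Impdh1 and Impdh2 encode isozymes of the same step. Paics and Ppat lie head to head on chromosome 5 and share their start region. Each window runs 5′ to 3′ on the gene's strand, from 250 bases before to 50 bases after the RefSeq start on GRCm38.p6. The positions that the deposited table lists, given with each gene, mostly differ from those of GRCm38 and cannot be set against these windows. Capitals mark E-boxes (CACGTG, the same on both strands, the letters bound by MYC and related factors) and CCAAT boxes (CCAAT or its reverse complement ATTGG).
Impdh2, chr9:108560186-108560485, plus strand: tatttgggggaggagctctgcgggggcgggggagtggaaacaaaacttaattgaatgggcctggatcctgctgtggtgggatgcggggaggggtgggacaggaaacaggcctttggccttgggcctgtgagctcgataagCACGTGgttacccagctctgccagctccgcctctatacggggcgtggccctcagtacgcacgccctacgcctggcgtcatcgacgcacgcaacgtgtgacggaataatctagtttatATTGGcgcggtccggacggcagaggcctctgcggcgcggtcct
Impdh1, chr6:29216315-29216614, minus strand: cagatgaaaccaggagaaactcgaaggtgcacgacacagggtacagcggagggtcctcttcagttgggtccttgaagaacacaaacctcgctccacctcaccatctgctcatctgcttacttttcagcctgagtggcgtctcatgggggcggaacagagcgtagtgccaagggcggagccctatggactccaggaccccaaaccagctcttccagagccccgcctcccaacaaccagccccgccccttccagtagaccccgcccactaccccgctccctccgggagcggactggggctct
Paics, chr5:76951052-76951351, plus strand: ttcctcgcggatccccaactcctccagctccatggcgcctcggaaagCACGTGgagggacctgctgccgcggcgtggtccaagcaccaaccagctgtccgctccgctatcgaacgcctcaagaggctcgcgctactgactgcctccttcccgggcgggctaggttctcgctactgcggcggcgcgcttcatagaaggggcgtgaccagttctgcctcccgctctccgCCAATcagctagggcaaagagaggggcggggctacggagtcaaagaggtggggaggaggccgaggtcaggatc
Ppat, chr5:76951529-76951828, minus strand: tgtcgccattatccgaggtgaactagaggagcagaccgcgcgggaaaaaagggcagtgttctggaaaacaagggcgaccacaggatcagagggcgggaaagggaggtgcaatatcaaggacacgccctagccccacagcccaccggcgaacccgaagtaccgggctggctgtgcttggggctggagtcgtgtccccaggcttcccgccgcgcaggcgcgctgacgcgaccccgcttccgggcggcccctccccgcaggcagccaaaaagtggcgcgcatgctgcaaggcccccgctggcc

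Windows of 9 of the 10 members, all but Dhodh, were used, 11 in all with 2 each for Ctps and Impdh1, and the first of the Impdh1 windows is printed. CACGTG was found in the windows of Impdh2, Paics and Atic (3 of 11), and in 7.15% of the 32851 windows of all genes. CCAAT in either orientation was in those of Impdh2, Paics, Atic and Gart (4 of 11) and in 37.4% of all windows. Another motif, TGACGTCA (the cAMP response element, the same on both strands), was found in the window of Umps alone among the members and in 1.79% of all windows. The E-box lay 110 bases upstream of the Impdh2 start and 203 bases upstream of the Paics start. The printed windows of Impdh1 and Ppat held neither. Of the 3 members with CACGTG, Impdh2 was lower and Paics and Atic were higher in the mean of CD8+4T1+NaAc. None of these 3 was called in the comparison above, and all 3 were called without replicate 1 of CD8+4T1+NaAc. Whether the letters bear on the levels was not tested.

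The first member of the pyrimidine branch, Cad (ENSMUSG00000013629, listed on chromosome 5 from 31212124 to 31235823), encodes the trifunctional protein that makes carbamoyl phosphate, carbamoyl aspartate and dihydroorotate. Its level was 34.3, 31.5, 32.5, 31.8 and 31.4 FPKM in replicates 1 to 5 of CD8+4T1 and 34.8, 36.7, 34.0, 37.9 and 33.7 FPKM in those of CD8+4T1+NaAc. The groups overlapped only through replicate 1 of CD8+4T1, which lay above replicates 3 and 5 of the other group. The means were 32.3 ± 1.19 and 35.4 ± 1.80 FPKM (SD, n = 5 each), a rise of 0.13 on the log2 scale (standard error 0.05, adjusted p by limma = 0.0487). This call sat close to the threshold: it was lost when any of replicates 2 to 5 of CD8+4T1 or replicates 2 to 4 of CD8+4T1+NaAc was left out (highest adjusted p = 0.116), and held in 7 of 12 alternatives with all samples. The rise was 0.31 with the same total (limma adjusted p = 0.00147) and 0.30 with T cell marker scaling (adjusted p = 0.00852).

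Dhodh (ENSMUSG00000031730, chromosome 8, 110317975 to 110335305), the mitochondrial dehydrogenase that turns dihydroorotate into orotate, was the lowest member. It had 3.26, 3.39, 3.30, 3.08 and 3.30 FPKM in CD8+4T1 and 2.99, 3.99, 3.29, 3.35 and 2.62 FPKM in CD8+4T1+NaAc. The NaAc samples spread to either side of the others, with a coefficient of variation of 15.6% against 3.50%. The log2 fold change was -0.02 (95% interval -0.25 to 0.21, limma adjusted p = 0.894), so the data leave room for changes of either sign within that interval.

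Umps (ENSMUSG00000022814, chromosome 16, 33775152 to 33787408) encodes the bifunctional enzyme that makes UMP from orotate. Its level was 20.3, 23.2, 22.5, 23.5 and 22.4 FPKM in CD8+4T1 and 17.5, 22.6, 19.2, 18.6 and 20.1 FPKM in CD8+4T1+NaAc. Replicate 2 alone of the NaAc samples reached into the range of the other group. The log2 fold change was -0.19 (standard error 0.07, limma adjusted p = 0.0504), just short of a call, and with that replicate left out it was -0.25 (adjusted p = 0.0109). Leaving out replicate 1 of CD8+4T1 also gave a call (-0.23, adjusted p = 0.0315). Rescaled to the same total, it was -0.02 (adjusted p = 0.845).

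Ctps (ENSMUSG00000028633, chromosome 4, 120397065 to 120427473), which encodes CTP synthase and makes CTP from UTP, had 17.8, 19.1, 18.2, 17.5 and 19.7 FPKM in CD8+4T1 and 16.5, 22.9, 19.4, 19.6 and 18.8 FPKM in CD8+4T1+NaAc. Both the lowest and the highest of the 10 samples were treated with NaAc. The log2 fold change was 0.07 (95% interval -0.11 to 0.24, limma adjusted p = 0.550). After rescaling to the same total it was 0.24 (adjusted p = 0.0219).

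In the purine branch the committed step is catalysed by the amidotransferase Ppat (ENSMUSG00000029246, chromosome 5, 77061096 to 77099425), which converts phosphoribosyl pyrophosphate to phosphoribosylamine. Its level was 24.2, 21.9, 20.5, 21.3 and 22.0 FPKM in CD8+4T1 and 22.5, 18.7, 18.6, 17.2 and 19.0 FPKM in CD8+4T1+NaAc. Of the NaAc samples, only replicate 1 lay within the range of CD8+4T1, and the other 4 were below it. The log2 fold change was -0.20 (standard error 0.07, limma adjusted p = 0.0549), and without replicate 1 of CD8+4T1+NaAc it was -0.26 (adjusted p = 0.00350). It was -0.02 with the same total (adjusted p = 0.867) and -0.03 with T cell marker scaling (adjusted p = 0.881).

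Gart (ENSMUSG00000022962, chromosome 16, 91418074 to 91443840) encodes a trifunctional protein of several early steps to IMP. It had 39.5, 41.6, 39.9, 42.2 and 42.1 FPKM in CD8+4T1 and 38.8, 35.4, 34.9, 32.9 and 36.5 FPKM in CD8+4T1+NaAc. Each NaAc sample was below each sample of the other group, and replicate 1 of NaAc came nearest to them. The means were 41.0 ± 1.27 and 35.7 ± 2.17 FPKM (SD, n = 5 each), so Gart fell by 0.20 on the log2 scale (standard error 0.05, limma adjusted p = 0.00909). Leaving out any sample kept the call (adjusted p 0.00146 to 0.0259), but the fall was relative to the authors' scaling: the log2 fold change was -0.02 (adjusted p = 0.750) with the same total and -0.03 (adjusted p = 0.810) with T cell marker scaling. Its listed position overlaps an antisense gene, Gm15964, by 2676 bases, but that gene held at most 1.65% of the fragments of the pair.

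Paics (ENSMUSG00000029247, chromosome 5, 77099154 to 77115356), the bifunctional enzyme of later steps to IMP, had 65.7, 61.8, 64.9, 62.3 and 61.4 FPKM in CD8+4T1 and 60.9, 72.5, 73.5, 71.3 and 75.6 FPKM in CD8+4T1+NaAc. Replicates 2 to 5 of NaAc were above all samples of the other group and replicate 1 was below them all. The log2 fold change was 0.16 (standard error 0.06, limma adjusted p = 0.0625), and without that replicate it was 0.21 (adjusted p = 0.00127). Rescaled to the same total, it was 0.34 (adjusted p = 0.00136).

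Atic (ENSMUSG00000026192, chromosome 1, 71596309 to 71618790), which carries out the last steps to IMP, split the samples in the same way. It had 15.7, 15.5, 15.8, 15.8 and 16.1 FPKM in CD8+4T1 and 14.7, 18.8, 17.4, 17.3 and 17.3 FPKM in CD8+4T1+NaAc, with replicate 1 of NaAc again below and the other 4 above every CD8+4T1 sample. The log2 fold change was 0.11 (95% interval -0.02 to 0.24, limma adjusted p = 0.181). Without replicate 1 of CD8+4T1+NaAc it was 0.16 (adjusted p = 0.00680), and with the same total 0.29 (adjusted p = 0.00255).

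IMP dehydrogenase makes XMP, the precursor of GMP, and is encoded by Impdh1 and Impdh2. Impdh1 (ENSMUSG00000003500, chromosome 6, 29200433 to 29216363) had 39.8, 35.8, 34.8, 38.1 and 35.9 FPKM in CD8+4T1 and 45.6, 47.8, 44.6, 48.4 and 40.5 FPKM in CD8+4T1+NaAc. Each NaAc sample was above each sample of the other group. The means were 36.9 ± 2.04 and 45.4 ± 3.14 FPKM (SD, n = 5 each), so Impdh1 rose 1.23-fold, or 0.30 on the log2 scale (standard error 0.06, 95% interval 0.17 to 0.43, limma adjusted p = 0.00277). It was the member whose call held in each of 12 alternatives with all samples (adjusted p 0.000318 to 0.00670) and with each of the 10 samples left out in turn (0.00114 to 0.00922).

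Impdh2 (ENSMUSG00000062867, chromosome 9, 108437485 to 108442783) had 118, 127, 125, 124 and 129 FPKM in CD8+4T1 and 79.5, 115, 106, 113 and 114 FPKM in CD8+4T1+NaAc. Each NaAc sample was below each sample of the other group. Replicate 1 stood far below the rest, and the log2 fold change of -0.25 had a standard error of 0.10, so that limma gave an adjusted p of 0.0663 and no call. Without this replicate the difference was smaller, -0.15, and passed (adjusted p = 0.0151). With the same total it was -0.07 (adjusted p = 0.566).

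Impdh2 has a processed pseudogene, Impdh2-ps, which the table lists on chromosome 8. Over the 1545 bases of the pseudogene, its GENCODE M21 transcript differed from that of Impdh2 at 4 bases (99.7% identity), and the longest identical run was 611 bases. Impdh2-ps was listed with 110 ± 8.68 FPKM without and 86.2 ± 10.8 FPKM with NaAc (SD, n = 5 each), and held 28.2% to 32.2% of the fragments of the pair, so the split between them is uncertain. Whether these fragments came from Impdh2 or from the pseudogene itself was not tested. Adding its fragments to Impdh2, an alternative chosen after seeing the data, gave a log2 fold change of -0.28 (limma adjusted p = 0.0386). The 60 bases with the most differences are shown, with the differing bases in capitals, 5′ to 3′ on the transcript strand, from base 1080 to 1139 of the Impdh2 transcript and from base 832 to 891 of the pseudogene.
Impdh2: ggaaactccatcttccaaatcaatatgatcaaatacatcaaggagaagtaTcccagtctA
Impdh2-ps: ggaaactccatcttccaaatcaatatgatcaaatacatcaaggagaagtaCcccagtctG

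A ratio of 2 genes within a sample does not move with the scaling of that sample. The level of Impdh2 relative to Impdh1 was 2.97, 3.54, 3.60, 3.26 and 3.58 in CD8+4T1 and 1.74, 2.41, 2.38, 2.34 and 2.82 in CD8+4T1+NaAc. All ratios with NaAc were below all ratios without it. The difference was -0.55 on the log2 scale (standard error 0.12, n = 5 each), a ratio 0.684 times as high. Since all NaAc samples were lower for Impdh2 and higher for Impdh1, the ratios had to separate, and they are given as a description with no test. Impdh2 made up 77.2% ± 1.5 of the summed FPKM of both isozymes in CD8+4T1 and 69.7% ± 3.76 in CD8+4T1+NaAc (SD, n = 5), and so remained the more abundant transcript in each sample. With any sample left out the difference was between -0.62 and -0.45, and with Impdh2-ps added to Impdh2 it was -0.58.

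**Figure D2:**
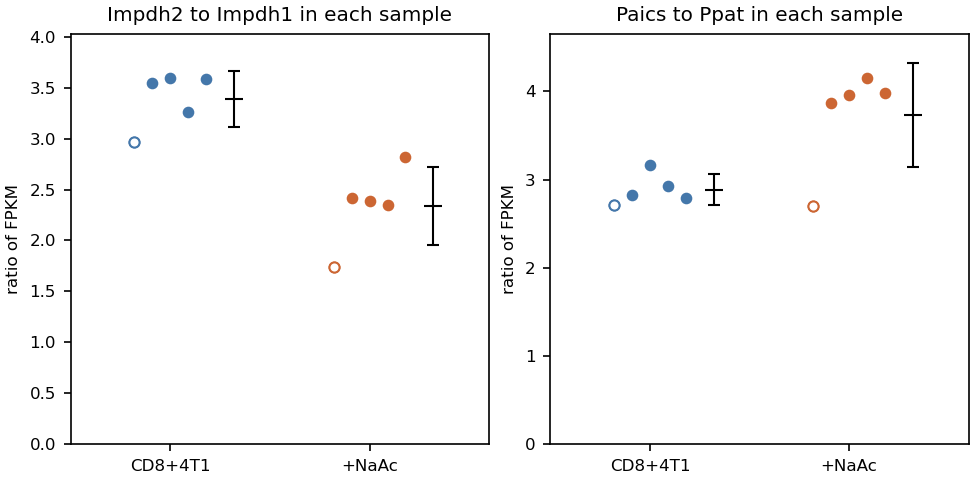
Ratio of FPKM (vertical axes, from 0) of Impdh2 to Impdh1 (left) and of Paics to Ppat (right) in each sample of CD8+4T1 (blue) and CD8+4T1+NaAc (orange), with the mean and SD as a bar and replicate 1 as an open circle. The Impdh2 to Impdh1 ratios are 2.97 to 3.60 without and 1.74 to 2.82 with NaAc, while for Paics to Ppat replicate 1 of NaAc, at 2.70, lies apart from the other 4.

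Paics and Ppat were compared in the same manner. The RefSeq start sites of the pair are 276 bases apart on GRCm38.p6, and in the deposited table their positions overlap by 272 bases on opposite strands. The Paics to Ppat ratio was 2.72, 2.82, 3.17, 2.93 and 2.79 in CD8+4T1 and 2.70, 3.87, 3.96, 4.15 and 3.98 in CD8+4T1+NaAc. Replicates 2 to 5 of NaAc were above all samples of the other group, and replicate 1 was at its lower edge. The difference was 0.36 on the log2 scale (standard error 0.12, n = 5 each), and with single samples left out it ranged from 0.32 to 0.47, the highest without replicate 1 of CD8+4T1+NaAc. The pair was chosen with its values known, so this is a description with no test. No strand setting of the counting is given in the sources used here, so reads from the overlap cannot be assigned to either gene with certainty.

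**Figure D3:**
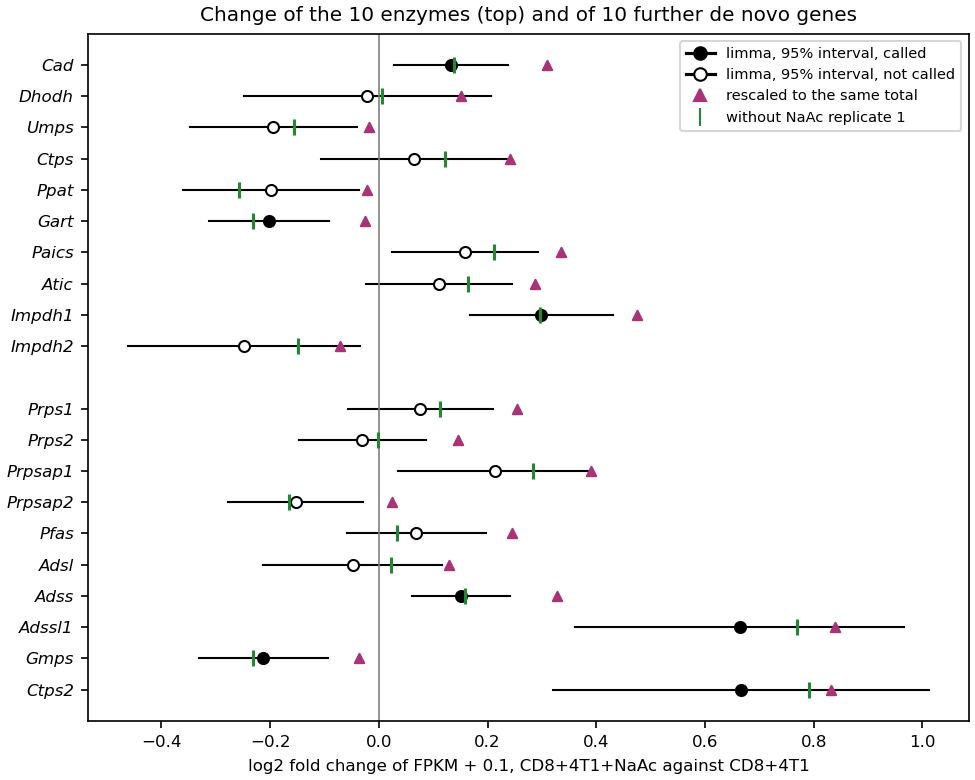
Log2 fold change of FPKM + 0.1 (horizontal axis, CD8+4T1+NaAc against CD8+4T1) with its 95% interval for the 10 enzymes (top) and 10 further de novo genes (bottom), with filled circles for called genes, triangles for values rescaled to the same total and green ticks for values without replicate 1 of CD8+4T1+NaAc. Rescaling moves the points to the right, as for Gart from -0.20 to -0.02 and for Impdh1 from 0.30 to 0.48.

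Of 10 further genes of de novo synthesis, 3 rose (Adss, Adssl1 and Ctps2) and 1 fell (Gmps), with a median log2 fold change of 0.07, beside 17.6% of all genes called higher and 19% lower. With the same total 6 rose and 0 fell, with a median of 0.25, beside 31.2% of all genes called higher, 8.8% called lower and a median of 0.16. After IMP the path divides, and Adss and Adssl1 encode the adenylosuccinate synthases toward AMP. Adss had 24.3 ± 0.891 FPKM in CD8+4T1 and 26.9 ± 0.659 in CD8+4T1+NaAc (SD, n = 5 each), a log2 fold change of 0.15 (limma adjusted p = 0.0144), and Adssl1 rose from 6.47 ± 0.810 to 10.4 ± 1.98 FPKM (log2 fold change 0.66, adjusted p = 0.00343). Toward GMP, Gmps, the GMP synthetase that acts after IMP dehydrogenase, fell from 13.4 ± 0.522 to 11.5 ± 0.708 FPKM, by 0.21 on the log2 scale (adjusted p = 0.00990). For these 3 genes the groups did not overlap. With the same total the value of Gmps was -0.04 (adjusted p = 0.694), while Adss and Adssl1 stayed called.

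Ctps2, the second CTP synthase, rose from 1.11 ± 0.0369 to 1.86 ± 0.417 FPKM (SD, n = 5 each), a log2 fold change of 0.67 (limma adjusted p = 0.00684), and stayed called in each alternative with all samples. At these levels it was far below Ctps, with 18.5 and 19.4 FPKM. It overlaps S100g on the opposite strand by 2608 bases, where reads cannot be told apart without strand. Of the synthetases that supply phosphoribosyl pyrophosphate, Prps1 had a log2 fold change of 0.08 (adjusted p = 0.358) and Prps2 one of -0.03 (adjusted p = 0.688). Their associated proteins had 0.21 for Prpsap1 (adjusted p = 0.0599) and -0.15 for Prpsap2 (adjusted p = 0.0544, groups not overlapping). Prpsap1 passed without replicate 1 of CD8+4T1+NaAc (0.28, adjusted p = 0.00223), and Prpsap2 passed without replicate 1 (adjusted p = 0.0396) or replicate 2 (adjusted p = 0.0486) of that group. Pfas, an amidotransferase of the path to IMP, had 0.07 (adjusted p = 0.381) and Adsl, the adenylosuccinate lyase, had -0.05 (adjusted p = 0.653). Rescaled to the same total, Prps1, Prpsap1 and Pfas were called higher, and the values of Prps2, Prpsap2 and Adsl turned positive without a call (Prpsap2 0.02, adjusted p = 0.791). A copy of Prps1, Prps1l3, held 30.0% to 46.7% of the fragments listed for Prps1 and its copies. It differs from Prps1 at 81 of 1484 aligned bases (94.5% identity). Prps1l3 alone had a log2 fold change of -0.56 (limma adjusted p = 0.000222). With Prps1l3 added to Prps1, an alternative chosen after seeing the data, the value of the sum was -0.17 (adjusted p = 0.0192).

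**Figure D4:**
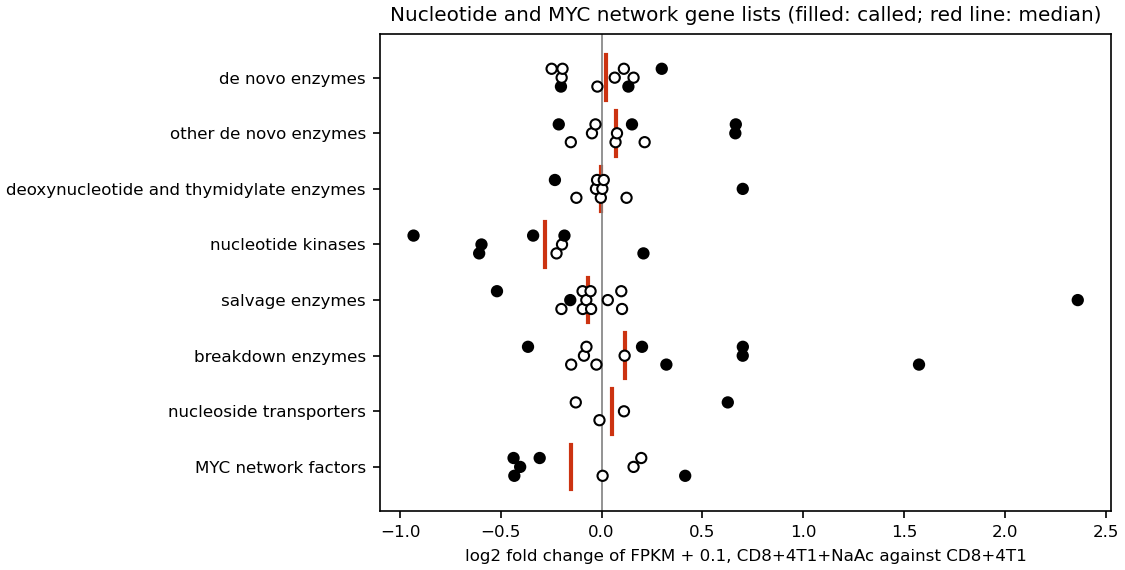
Log2 fold change of FPKM + 0.1 (horizontal axis, CD8+4T1+NaAc against CD8+4T1) of each tested gene of the nucleotide lists and of the MYC network, with filled circles for called genes and a red line at each list's median. Of the medians, that of the nucleotide kinases is the lowest, at -0.28, and that of the de novo enzymes is 0.02.

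The other genes of nucleotide metabolism are given as counts with the genes of the largest change. Of 8 nucleotide kinases tested, 5 fell and 1 rose, beside 19% of all genes called lower and 17.6% higher, with a median log2 fold change of -0.28 beside -0.02 over all genes. With the same total 3 fell and 1 rose, beside 8.8% lower and 31.2% higher, and the median was -0.11 beside 0.16. The falls included Ak4 (-0.93, limma adjusted p = 6.5e-05) and Ak1 (-0.60, adjusted p = 5.9e-05), adenylate kinases, Nme1 (-0.61, adjusted p = 0.000974), a nucleoside diphosphate kinase, and Ak6 (-0.34, adjusted p = 0.00665). Ak4, Ak1 and Nme1 stayed called with the same total, and Ak6 did not (adjusted p = 0.107). Of 12 salvage enzymes 1 rose and 2 fell, no more than the shares of all genes in either direction. Their median was -0.07, and with the same total 0.11, a shift of the same kind as that of all genes (-0.02 and 0.16). Hprt, which returns hypoxanthine and guanine to IMP and GMP, fell from 156 ± 11.0 to 110 ± 15.0 FPKM (SD, n = 5 each), by 0.52 on the log2 scale (adjusted p = 0.00186, and 0.0124 with the same total). Uck2, a uridine-cytidine kinase, fell by 0.16 (adjusted p = 0.0203, and 0.735 with the same total), and lost its call without replicate 3, 4 or 5 of CD8+4T1 (highest adjusted p = 0.0531). Cda, cytidine deaminase, rose (adjusted p = 0.000354) from 0.127 ± 0.0487 to 1.10 ± 0.419 FPKM (SD, n = 5 each), with 1 to 3 fragments behind the values in CD8+4T1 and 13 to 35 in CD8+4T1+NaAc.

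Of 11 breakdown enzymes tested, 5 rose and 1 fell (median 0.11), beside 17.6% of all genes called higher and 19% lower. With the same total 6 rose and 0 fell, beside 31.2% and 8.8%. Among them, the call of Ampd2, an AMP deaminase (limma adjusted p = 0.0375), held with only 2 of the 10 samples left out in turn (highest adjusted p = 0.0884). Xdh, the xanthine dehydrogenase that ends in uric acid, rose from 16.9 ± 0.407 to 27.6 ± 1.79 FPKM (log2 fold change 0.70, limma adjusted p = 1.5e-05). Ampd3, another AMP deaminase, and Nt5e, the surface enzyme CD73, rose by 1.57 (adjusted p = 0.000196) and 0.70 (adjusted p = 0.00326), both at levels of at most 3.13 FPKM in the mean. Nt5c, a nucleotidase, fell by 0.37 (adjusted p = 0.00645, and 0.0558 with the same total). Of 9 deoxynucleotide and thymidylate genes, 1 rose (Dctd, dCMP deaminase, 0.70, adjusted p = 0.0167) and 1 fell (Dtymk, thymidylate kinase, -0.23, adjusted p = 0.00395, and 0.440 with the same total), below the shares of all genes called. Rescaled, 3 of the 9 rose (Dctd, Rrm2 and Samhd1) and 0 fell, which is close to the share of all genes called higher. Of 4 nucleoside transporters, Slc29a2 was called higher (0.63, adjusted p = 0.0217, and 0.0539 without replicate 3 of CD8+4T1), beside 17.6% of all genes. Slc29a1 missed the threshold narrowly (0.11, adjusted p = 0.0502, groups not overlapping) and passed with the same total (0.29, adjusted p = 0.000651), where 2 of 4 were higher beside 31.2% of all genes.

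The MYC network, whose factors bind the E-box, had 8 genes tested, of which 4 fell and 1 rose, beside 19% of all genes called lower and 17.6% higher. With the same total 2 fell and 4 rose, beside 8.8% lower and 31.2% higher. Myc itself was at 72.4 ± 6.28 FPKM without and 80.8 ± 6.37 FPKM with NaAc (SD, n = 5 each, log2 fold change 0.16, limma adjusted p = 0.112), and was called higher with the same total (0.34, adjusted p = 0.00848) and with T cell marker scaling (0.33, adjusted p = 0.0265). Mxd1 (-0.44, adjusted p = 0.00142) and Mxi1 (-0.43, adjusted p = 0.00226), which antagonise MYC, fell, and Mxd3, an antagonist of the same family, rose (0.41, adjusted p = 0.0143). Mlx, the partner of the MondoA and ChREBP factors, fell (-0.40, adjusted p = 0.0354). Max, the other gene of the network called lower, had -0.31 (limma adjusted p = 0.00124, groups not overlapping). It lost its call with the same total (adjusted p = 0.0858) and with T cell marker scaling (adjusted p = 0.139). Mxi1 lost its call with T cell marker scaling (adjusted p = 0.102). Mlx lost its call with the same total (adjusted p = 0.176), and without any 1 of the CD8+4T1 samples or replicate 4 of CD8+4T1+NaAc (highest adjusted p = 0.0765). Of 11 cell cycle markers 1 rose, Mki67 (0.30, adjusted p = 0.00293), and 0 fell, fewer in each direction than the shares of all genes, with a median of 0.04. Without replicate 1 of CD8+4T1+NaAc 4 rose (Mki67, Mcm5, Mcm6 and Cdk1) and 1 fell (Pcna), beside 21.7% of all genes called higher and 22.6% lower in that fit. After rescaling to the same total 7 rose and 0 fell, beside 31.2% higher and 8.8% lower.

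The genes most like the members in their course over the samples were sought by the Pearson correlation of log2(FPKM + 0.1) with the mean standardized level of the 10 members, over 10 samples and 11531 protein-coding genes. They were Qsox2 (r = 0.938), Abitram (0.922), Gnl3 (0.916), Cyb5r1 (0.912) and Gmds (0.902). This mean course was highest in replicate 2 and lowest in replicate 1 of CD8+4T1+NaAc. It stood close to Ctps (r = 0.917) and far from Gart (r = -0.299) and Ppat (r = -0.372). With Impdh1 (r = 0.221) and Cad (r = 0.316), the members called higher, its correlation was low, so it does not stand for each member. The points share their libraries and their scaling.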

How the data were processed

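RNA of 10 samples was measured in 2 groups of 5, set by the labels. The submitters' processing notes name fastp, HISAT2 2.0.5, StringTie 1.3.3b and featureCounts 1.5.0-p3, and the methods name DESeq2 for the authors' own test. Genome build and strand setting are not given in the sources used here. The deposited FPKM are per gene and sample, not pooled, and the gene length is another column that the authors deposited. Positions are as the table lists them, and of 52073 genes shared with a GRCm38 annotation (GENCODE M21) only 1430 had the same position. Multiplied by length, 100% of FPKM were whole multiples of a step (within 0.1), which gave 16306447 to 18853726 fragments per sample. Intervals for the fitted differences are 95% confidence intervals of the difference in means on the log2 scale. They are not ranges of sample values, and they rest only on the spread between these samples.

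The comparison took genes whose mean reached 0.5 FPKM and used limma (version 3.58.1, R 4.3.3) on log2(FPKM + 0.1), with trend and robust moderation; exact permutation tests planned for the Impdh2 to Impdh1 and Paics to Ppat ratios are not given, since these pairs were chosen with their values known. A check of limma on simulated data is not quoted. Its lowest level simulated and its pass mark had been relaxed because a stricter run missed. Changes as small as those of the members were not simulated. Of repeated names the entry with the highest mean was used. The members, ratios and lists were chosen with earlier results of these data known. Named were all members, the other de novo enzymes, up to 4 called genes with the largest change per further list and the 5 genes most like the members. Cd8a, Myc, Max, the named cell cycle and other cell type markers, Ampd2 and the copies Impdh2-ps and Prps1l3 were added after their values were seen. Alternatives were pseudocounts of 1 and 0.01, no filter or a mean of 5 FPKM, other scalings, sample weights, no moderation, a replicate block, voom on recovered fragments and samples left out.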

Additional observations from a re-analysis of the deposited data

Results flagged for a closer look

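In 44 groups of 5 values (the 10 enzymes, the 10 further de novo genes and the 2 ratios, in each group), the gap between the most extreme sample and its neighbour was set against the whole range, and 4 exceeded Dixon's critical value of 0.710, where chance gives about 2.2. Of these, 3 concern replicate 1 of CD8+4T1+NaAc as the lowest sample of its group: Impdh2 (0.779 of the range), Paics (0.731) and the Paics to Ppat ratio (0.836). The other is Prpsap2, where replicate 2 of CD8+4T1 was the highest (0.871). For the members whose call changed without replicate 1 of CD8+4T1+NaAc, both values are given above.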

How the results depend on the processing

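The direction of Impdh1, Cad, Gart, Umps, Ppat, Paics, Atic, Ctps and Impdh2 was the same in all 23 alternatives, and that of Dhodh changed in 6 of 22, without a call. The same direction includes values near 0: Umps, Ppat and Gart were each at -0.02 with the same total. Ctps was at 0.005 without replicate 2 of CD8+4T1+NaAc. The calls depended on the setting. The count of members called lower (1) was 3 with a filter at 5 FPKM and with median-ratio scaling, 4 with sample weights, with voom and without the samples numbered 1, 2 with copies summed, and 0 with the same total or T cell marker scaling. With single samples left out it ranged from 1 to 3. The count of members called higher (2) was 1 without a filter, with median-ratio scaling, without moderation and with voom, 4 with sample weights and without the samples numbered 1, and 5 with the same total or T cell marker scaling. With single samples left out it ranged from 1 to 4. Over all genes tested, the shares called lower were 31.7% with the filter at 5 FPKM, 20.3% with median-ratio scaling and 24.7% with sample weights. They were 19.6% with voom, 22.6% without the samples numbered 1 and 19% with copies summed. They were 8.8% with the same total and 7.65% with T cell marker scaling. The shares called higher were 8.94% without a filter, 16.7% with median-ratio scaling, 17.7% without moderation and 18.5% with voom. They were 23.7% with sample weights, 21.8% without the samples numbered 1, 31.2% with the same total and 28.4% with T cell marker scaling. With single samples left out, 16.1% to 22.6% were lower and 15.1% to 21.7% higher. The count among the other de novo enzymes was 4 to 6. Adss, Adssl1 and Ctps2 were called in each alternative that tested them, and Gmps was not with the same total or T cell marker scaling (adjusted p = 0.694 and 0.736). The cause of these shifts was not tested.

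Deviations of same-numbered samples were barely correlated (mean r 0.014 across genes, with 0.037 for number 1 and 0.069 for number 4). For numbers 1 and 4 the best match was nevertheless the sample of the same number. Whether the numbers mark pairs or batches is not settled by these values. With the replicate block, 4 members were called lower and 1 higher, beside 18.1% and 16.2% of all genes, Myc was called higher (adjusted p = 0.0312) and Pcna lower (adjusted p = 0.0157). In paired form the Impdh2 to Impdh1 difference of -0.55 and the Paics to Ppat difference of 0.36 are the same by arithmetic. This shows nothing about their stability. Without the block, and with each sample left out, these differences ranged from -0.62 to -0.45 and from 0.32 to 0.47. Dhodh rested on the fewest fragments of the members, and its interval spans small changes of either sign.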
